A study of Mus musculus with 30 samples.

Results

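The transcripts of 10 genes of the myostatin and activin pathway were followed in mouse soleus, a postural hindlimb muscle rich in slow fibres, when the muscle was unloaded and when both catalytic subunits of AMPK were deleted in muscle. The genes were chosen by name, as the rows of the deposited gene table whose identifiers map to Mstn, Gdf11, Acvr2a, Acvr2b, Fst, Fstl3, Fstl1, Smad2, Smad3 and Smad7. All 10 of these, of 56980 genes in the table, were found, and all 10 passed the filter on low counts that left 16932 genes to test. The choice of genes was made with earlier results of these data known. The 4 groups were unloaded knockouts (HU mKO, 8 mice), unloaded controls (HU Ctrl, 7 mice), ambulatory knockouts (AMB mKO, 7 mice) and ambulatory controls (AMB Ctrl, 8 mice). The mKO mice lacked AMPKalpha1 and AMPKalpha2 in muscle. The Ctrl mice carried the floxed alleles of both genes and no Cre, so that the loss of AMPK and the presence of Cre cannot be told apart, and the labels do not name the promoter that drives Cre. Hindlimb unloading (HU), in which the hind limbs bear no weight, lasted 4 weeks, and AMB mice walked freely for the same 4 weeks. All mice were C57BL/6J of 3 to 4 months, and each group held both sexes.

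Myostatin and GDF11 are secreted ligands of the TGF-beta family, and activins are their relatives. They bind the activin type II receptors ACVR2A and ACVR2B, which recruit type I receptors that phosphorylate SMAD2 and SMAD3. These SMADs then enter the nucleus with SMAD4. Follistatin and FSTL3 bind the ligands outside the cell, SMAD7 is an inhibitor inside it, and loss of myostatin is known to enlarge skeletal muscle.

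Unloading changed the level of 4 of the 10 genes when the 2 genotypes were averaged, and no member was called between genotypes. Smad3, which carries the signal to the nucleus, rose 1.68-fold, and the receptor Acvr2a rose 1.14-fold. Fstl1, a secreted glycoprotein related to follistatin, fell 1.62-fold, and the ligand Gdf11 fell 1.38-fold. The calls of Smad3 and Fstl1 were kept under every alternative. Those of Acvr2a and Gdf11 were lost in many fits that left out 1 library. They were kept in 4 (Acvr2a) and 5 (Gdf11) of 7 other alternatives. Mstn itself was not called with all mice in the model, nor in any alternative other than single omissions. It was called on unloading when 1 AMB Ctrl mouse was left out. That mouse stood out by its Mstn level itself, so this fit is no independent support for a change. The SD of Mstn within a group was 1.73 to 3.06 CPM around means of 2.62 to 4.65 CPM. A call here is an adjusted p under 0.05 in edgeR's quasi-likelihood test, with sex in the model and the Benjamini-Hochberg adjustment over the 16932 genes, and the words rise and fall are kept for calls. Across all genes the same comparison called 28.5%, beside which the members' 4 of 10 is to be read. At an unadjusted p below 0.05 it had 8 of 10 members and 39.6% of all genes.

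The upstream sequences of Mstn and of the 4 called genes are shown, since the calls concern transcript levels and these windows lie just ahead of the starts of transcription. Each is the 250 bases before the RefSeq start on GRCm38.p6, read in the direction of the gene. Capitals mark the letters CANNTG, the E-box that myogenic factors such as MyoD bind, and CAGAC, the box that SMAD3 binds, searched on both strands, so that CAGAC on the other strand reads GTCTG. The 2 motifs do not overlap in the 5 windows shown. The Mstn window lies at chr1:53061390-53061639 on the plus strand and holds 4 E-boxes and 2 CAGAC boxes. The Gdf11 window, at chr10:128891719-128891968 on the minus strand, holds 1 E-box and no CAGAC box. The Acvr2a window, at chr2:48813859-48814108 on the plus strand, holds no E-box and 1 CAGAC box. The windows of Fstl1, at chr16:37776805-37777054 on the plus strand, and of Smad3, at chr9:63757995-63758244 on the minus strand, hold neither. Of 32851 windows of this length, 66.2% hold an E-box, with a median of 1, and 42.2% hold a CAGAC box. A match is a run of letters and not a measured site.
Mstn: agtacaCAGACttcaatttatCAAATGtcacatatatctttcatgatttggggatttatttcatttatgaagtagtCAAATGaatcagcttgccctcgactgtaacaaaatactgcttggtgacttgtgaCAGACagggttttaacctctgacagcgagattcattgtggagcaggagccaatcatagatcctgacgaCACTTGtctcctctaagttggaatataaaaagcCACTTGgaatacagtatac
Gdf11: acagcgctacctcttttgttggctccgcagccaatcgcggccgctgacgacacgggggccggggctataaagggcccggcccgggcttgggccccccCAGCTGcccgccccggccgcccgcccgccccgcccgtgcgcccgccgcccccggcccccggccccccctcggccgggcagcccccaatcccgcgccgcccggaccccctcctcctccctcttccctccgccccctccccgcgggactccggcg
Acvr2a: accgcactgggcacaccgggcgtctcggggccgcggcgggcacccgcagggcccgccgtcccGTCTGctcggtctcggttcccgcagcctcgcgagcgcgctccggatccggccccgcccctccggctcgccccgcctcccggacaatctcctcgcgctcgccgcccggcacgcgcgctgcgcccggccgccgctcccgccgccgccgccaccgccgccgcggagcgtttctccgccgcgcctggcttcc
Fstl1: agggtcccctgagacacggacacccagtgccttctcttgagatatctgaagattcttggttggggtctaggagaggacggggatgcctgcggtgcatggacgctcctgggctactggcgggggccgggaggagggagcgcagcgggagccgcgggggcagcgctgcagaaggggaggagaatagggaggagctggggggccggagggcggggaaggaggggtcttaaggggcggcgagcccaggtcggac
Smad3: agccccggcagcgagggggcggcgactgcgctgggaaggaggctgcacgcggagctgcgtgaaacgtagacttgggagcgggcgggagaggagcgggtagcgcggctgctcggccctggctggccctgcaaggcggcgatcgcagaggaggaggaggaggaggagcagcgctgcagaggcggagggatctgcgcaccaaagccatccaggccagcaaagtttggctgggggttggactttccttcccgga
The G and C content of these windows was 38.4% for Mstn, 81.2% for Gdf11, 82% for Acvr2a, 68% for Fstl1 and 69.2% for Smad3, so the Mstn window is the one of the 5 poor in G and C.

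Libraries held 12.1 to 17.5 M counts in HU mKO, 13.9 to 18.1 M in HU Ctrl, 13 to 18.5 M in AMB mKO and 15.3 to 20.9 M in AMB Ctrl. Prkaa2, the AMPKalpha2 gene, averaged 80.1 ± 18.5 CPM in HU mKO and 254 ± 73.2 CPM in HU Ctrl, and 60.3 ± 26.3 CPM in AMB mKO and 213 ± 28.4 CPM in AMB Ctrl (SD, n = 8, 7, 7 and 8 mice), so the genotype labels hold for this gene. Prkaa1, the AMPKalpha1 gene, averaged 17.5 ± 3.88 CPM in HU mKO and 25.3 ± 2.98 CPM in HU Ctrl, and 17.2 ± 9.04 CPM in AMB mKO and 20.99 ± 2.75 CPM in AMB Ctrl (SD, same mice). It was not called in either pair (log2 change of -0.60, edgeR adjusted p = 1, in unloaded mice and -0.20, adjusted p = 0.891, in ambulatory mice). HU mKO mice other than replicates 2 and 3 had 13.4 to 17.6 CPM, below every HU Ctrl mouse (lowest 22.4 CPM). Most AMB mKO mice lay below every AMB Ctrl mouse (lowest 16.5 CPM). The highest level of all 30 mice was 36.2 CPM in AMB mKO replicate 2, which also stood apart in its markers (below). Prkaa1 thus separates the genotypes only in part in these whole-gene counts of whole muscle. CPM here are counts scaled to library size after TMM normalisation. The muscle fibre markers were present in every library, but 1 library stood apart in them. AMB mKO replicate 2 held 9170 CPM over the 8 muscle fibre markers, where no library outside AMB mKO held less than 87700, and it held the highest sums of the 8 adipocyte markers (10500 CPM) and of the 8 fibro-adipogenic progenitor markers (8200 CPM). The next highest adipocyte sums were 2610 and 2490 CPM in HU mKO replicates 3 and 2, which are left out together with it in 1 alternative, and 1880 CPM in AMB mKO replicate 3. For the unloading changes of the members, values without AMB mKO replicate 2 are given where leaving it out changed a call or a direction or moved the value by over 1.5 times.

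**Figure D1:**
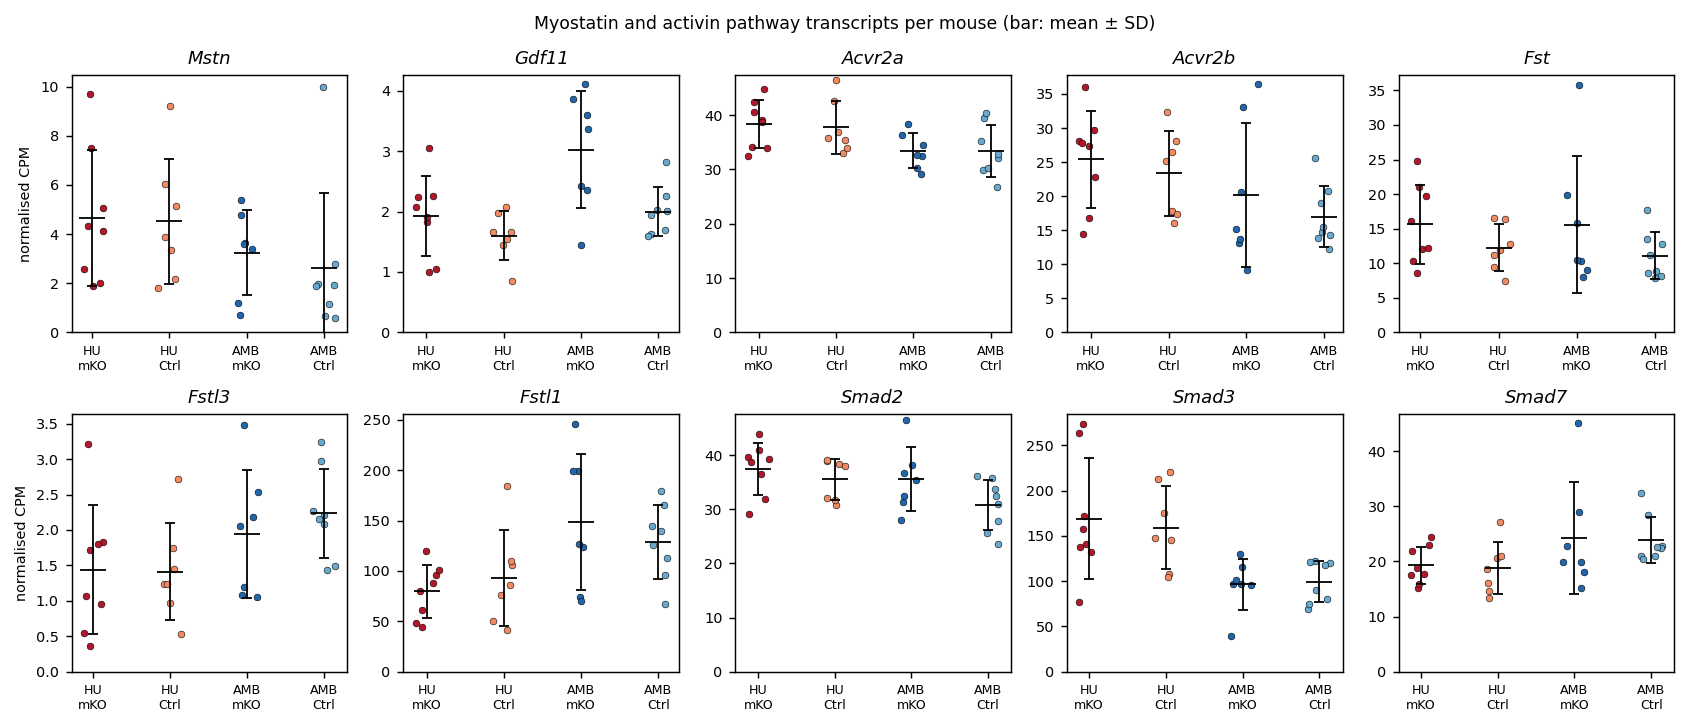
Level of each of the 10 genes in every mouse, in TMM-normalised CPM, by group from HU mKO on the left to AMB Ctrl on the right. Points are mice, and the bar is the mean with its SD, cut at 0 for Mstn in AMB Ctrl, where the SD of 3.06 exceeds the mean of 2.62. The Smad3 points of HU mice lie mostly above those of AMB mice, and the single high Mstn point of AMB Ctrl stands at 9.97.

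Per kilobase of merged exon, a length taken from an annotation of another build, the members are set here in the order of their medians over the 30 libraries. Smad3 and Fstl1 led, with medians of 21.7 and 21.1 CPM per kilobase and overlapping ranges of 7.03 to 49.3 and 8.34 to 50.02. The receptors and the other SMADs followed closely together, at 6.13 for Acvr2a, 5.05 for Acvr2b, 4.596 for Smad7 and 4.06 CPM per kilobase for Smad2. The binder Fst had 2.60 CPM per kilobase. The ligand Mstn had 1.251, Fstl3 0.707 and Gdf11 0.492 CPM per kilobase, the 3 lowest medians of the 10. The ranges of neighbours in this order overlapped, except that every library had more Fstl1 (lowest 8.34) than any had Acvr2a (highest 8.18), and these levels are medians that are not adjusted for group.

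Of the ligands, Mstn was a rare transcript in soleus and an uneven one. It ran from 1.90 to 9.71 CPM with a median of 4.23 in HU mKO, and from 1.81 to 9.21 CPM with a median of 3.88 in HU Ctrl. In AMB mKO it ran from 0.711 to 5.40 CPM with a median of 3.61, and in AMB Ctrl from 0.579 to 9.97 CPM with a median of 1.92. All 4 groups overlapped, and the AMB Ctrl range reached the highest value of all because of 1 mouse, replicate 1, beside which the next AMB Ctrl mouse had 2.77 CPM. The fitted log2 change on unloading was 0.76 ± 0.53 in mKO mice (SE, edgeR adjusted p = 0.358), 0.74 ± 0.49 in controls (adjusted p = 0.353) and 0.75 ± 0.36 averaged over genotypes (adjusted p = 0.115). None of these passed. Without AMB Ctrl replicate 1 the change was 1.49 in controls (adjusted p = 0.0366) and 1.02 averaged over genotypes (adjusted p = 0.0136), both past the threshold, and 0.55 in mKO mice (adjusted p = 0.451). Replicate 1 stood out by its Mstn level itself, so leaving it out favours a higher value and gives no independent support. The alternatives other than single omissions gave adjusted p of 0.322 to 0.481 in controls and 0.0752 to 0.204 averaged. The Mstn value in controls thus rests on 1 mouse of 8, and the lowest libraries held 9 and 10 reads of Mstn, so that counting error adds to the spread there.

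Gdf11, a close relative of myostatin that signals through the same receptors, was the one ligand of the members with a call. It ran from 1.00 to 3.05 CPM with a median of 1.99 in HU mKO and from 1.45 to 4.11 CPM with a median of 3.37 in AMB mKO. In controls it ran from 0.855 to 2.08 CPM with a median of 1.66 in HU Ctrl, against 1.59 to 2.82 CPM with a median of 1.98 in AMB Ctrl. The highest level was that of AMB mKO, where 4 of 7 mice lay above every AMB Ctrl mouse, and the other groups lay close together. All 4 were male, in a group of 5 males and 2 females beside 3 males and 5 females in AMB Ctrl. The log2 change on unloading was -0.60 ± 0.25 in mKO mice (adjusted p = 0.114), -0.32 ± 0.24 in controls (adjusted p = 0.414) and -0.46 ± 0.17 averaged over genotypes (adjusted p = 0.0398). The averaged call was lost in 13 of 30 fits that left out 1 library each, at adjusted p between 0.0123 and 0.0697 over the 30. Those were the fits without AMB Ctrl replicates 5, 6 and 8, AMB mKO replicates 4, 5, 6 and 7, HU Ctrl replicates 1, 3 and 4, and HU mKO replicates 1, 5 and 6. Without AMB mKO replicate 2 the change in mKO mice was -0.76 (adjusted p = 0.0356), which passed, as did -0.94 without the 3 adipocyte-rich libraries (0.0105). The other alternatives gave adjusted p of up to 0.337.

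The activin type II receptors were both higher in unloaded mice in their fitted values, and 1 of the 2 passed. Acvr2a ran from 32.5 to 44.8 CPM with a median of 39.0 in HU mKO and from 29.2 to 38.3 CPM with a median of 32.7 in AMB mKO, where 5 of 8 HU mKO mice lay above every AMB mKO mouse. In HU Ctrl it ran from 33.1 to 46.5 CPM with a median of 35.8, against 26.7 to 40.3 CPM with a median of 32.5 in AMB Ctrl. Its SD within groups was 3.22 to 4.93 CPM, and the averaged log2 change of 0.19 ± 0.071 (adjusted p = 0.0483) was small and close to the threshold. It lost its call in 24 of the 30 fits without 1 library, where adjusted p lay between 0.0285 and 0.14, and kept it without AMB Ctrl replicate 2 or 8, AMB mKO replicate 2, HU Ctrl replicate 1 or 2, or HU mKO replicate 2. Acvr2b, the receptor with the higher affinity for myostatin, had medians of 27.6 CPM in HU mKO and 15.1 CPM in AMB mKO, and of 25.1 CPM in HU Ctrl and 15.1 CPM in AMB Ctrl. The groups overlapped, with 14.5 to 36.0 CPM in HU mKO and 9.14 to 36.5 CPM in AMB mKO, and 16.1 to 32.4 CPM in HU Ctrl and 12.3 to 25.6 CPM in AMB Ctrl. Its averaged log2 change was 0.40 ± 0.18 (adjusted p = 0.0867), and it passed without AMB Ctrl replicate 4 (adjusted p = 0.0492) or AMB mKO replicate 1 (0.0248) or 4 (0.0325), with the title letter in the model (0.0115) and without the 3 adipocyte-rich libraries (0.0493). In mKO mice its change was 0.36 ± 0.25 (adjusted p = 0.368), and 0.22 without AMB mKO replicate 2 (adjusted p = 0.587).

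Among follistatin and its relatives Fstl3 and Fstl1, Fstl1 had the largest change in mKO mice and averaged over genotypes. In controls the value of Fstl3 (-0.55 ± 0.34, adjusted p = 0.306) lay beyond that of Fstl1. Fstl1 ran from 44.6 to 120 CPM with a median of 83.9 in HU mKO, against 70.7 to 246 CPM with a median of 127 in AMB mKO. In HU Ctrl it ran from 41.0 to 184 CPM with a median of 85.8, against 67.6 to 180 CPM with a median of 133 in AMB Ctrl. Both pairs overlapped, and 3 of 8 HU mKO mice lay below every AMB mKO mouse. Fstl1 fell in mKO mice by 0.98 on the log2 scale (SE 0.30, 1.97-fold, adjusted p = 0.0377) and averaged over genotypes by 0.70 (SE 0.21, adjusted p = 0.0121), while the change in controls was -0.42 ± 0.30 (adjusted p = 0.389). The call in mKO mice was lost without AMB mKO replicate 2 (-0.90, adjusted p = 0.0734), and also without AMB mKO replicate 4 or 5 or HU mKO replicate 5, 6 or 8, at adjusted p of up to 0.0907. The alternatives other than single omissions gave adjusted p between 0.0147 and 0.133. The averaged call was kept without each of the 30 libraries in turn. Sample titles end in a letter (a, b or c) with no stated meaning, which may or may not mark a batch. Fstl1 was lower in HU mKO than in AMB mKO within each of the 3 letters. In controls it was higher in HU mice of letter c by 0.21 on the log2 scale and lower in letters a and b.

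FSTL1 is made by mesenchymal cells as well as by muscle fibres. Averaged over genotypes, 2 of 8 tenocyte markers fell with unloading and none rose, where 14.3% of all genes fell, and their summed level had a median of 497 CPM in HU mKO (108 to 1440) and 853 CPM in AMB mKO (60.1 to 2870), and of 1220 CPM in HU Ctrl (103 to 2900) and 1780 CPM in AMB Ctrl (191 to 2430). Of 8 fibro-adipogenic progenitor markers 1 fell, a share below that of all genes, with summed medians of 1650 CPM in HU mKO (1230 to 2830) and 1860 CPM in AMB mKO (1110 to 8200), and of 1980 CPM in HU Ctrl (1060 to 2810) and 1590 CPM in AMB Ctrl (1270 to 2320). Within mKO mice all 8 fibro-adipogenic progenitor values lay below 0 (median log2 change -0.61), and 1 was called, beside 10.1% of all genes. The 8200 CPM was that of AMB mKO replicate 2. No marker value without it is given here, so the marker changes in mKO mice may lean on it. In controls 5 lay above 0 and 3 below (median 0.115), and 0 were called, beside 11.1%. All 8 tenocyte values lay below 0 in mKO mice (median -0.904). In controls 5 tenocyte values lay below 0 and 3 above (median -0.391). No marker of either list was at 0 in all libraries, and the part of these 2 cell types in the Fstl1 result was not tested. In bulk tissue, fewer cells of a type and less RNA per cell cannot be told apart.

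Follistatin, the classic antagonist of myostatin and activins, overlapped widely between groups. Fst ran from 8.63 to 24.9 CPM with a median of 14.1 in HU mKO and from 7.48 to 16.6 CPM with a median of 11.9 in HU Ctrl. In AMB mKO it ran from 7.98 to 35.8 CPM with a median of 10.4, and in AMB Ctrl from 7.88 to 17.7 CPM with a median of 10.1. The highest AMB mKO mouse was the library that stood apart. The log2 change on unloading was -0.01 ± 0.28 in mKO mice and 0.16 ± 0.29 in controls (adjusted p = 0.98 and 0.768), and 0.08 ± 0.20 averaged over genotypes (adjusted p = 0.814). Without that library it was 0.45 in mKO mice (adjusted p = 0.259), 0.11 in controls (adjusted p = 0.808) and 0.28 averaged (adjusted p = 0.214), so that 1 library sets the direction in mKO mice, and none of these passed. Fstl3, the follistatin relative that also binds myostatin and activins, was scarce, with as few as 5 reads in a library. Its medians were 1.39 CPM in HU mKO (0.368 to 3.21) and 2.05 CPM in AMB mKO (1.05 to 3.48), and 1.24 CPM in HU Ctrl (0.5261 to 2.71) and 2.18 CPM in AMB Ctrl (1.43 to 3.25). The averaged change was -0.58 ± 0.24 (adjusted p = 0.066), and it passed in 5 fits without 1 library, at adjusted p of 0.0236 to 0.0479, namely without AMB mKO replicate 1 or 3, HU Ctrl replicate 2, or HU mKO replicate 1 or 3. It also passed in DESeq2 (adjusted p = 0.043), with the title letter in the model (0.0231) and without the 3 adipocyte-rich libraries (0.0335).

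The ratio of ligand to binder within a library does not depend on how libraries are scaled. The log2 ratio of Mstn to Fst counts averaged -1.87 ± 1.15 in HU mKO and -2.33 ± 1.50 in AMB mKO, and -1.58 ± 0.909 in HU Ctrl and -2.57 ± 1.46 in AMB Ctrl (SD). The difference was 0.46 in mKO mice (exact two-sided permutation test, p = 0.515, adjusted p = 0.753 over 4 comparisons) and 0.99 in controls (exact p = 0.147, adjusted p = 0.588). Neither passed in a design whose smallest exact p is 0.00016, and the SD within a group was 0.909 to 1.50, beside differences of 0.46 and 0.99.

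Of the 3 SMADs, Smad3 was the one called, and its adjusted p was the lowest of the 10 genes in the averaged comparison. It ran from 77.0 to 273 CPM with a median of 149 in HU mKO, against 39.0 to 130 CPM with a median of 97.1 in AMB mKO. In HU Ctrl it ran from 104 to 220 CPM with a median of 148, against 69.2 to 122 CPM with a median of 105 in AMB Ctrl. The ranges overlapped, yet 7 of 8 HU mKO mice lay above every AMB mKO mouse and 5 of 7 HU Ctrl mice above every AMB Ctrl mouse. The log2 change was 0.81 ± 0.25 in mKO mice (1.76-fold, adjusted p = 0.0395), 0.68 ± 0.24 in controls (adjusted p = 0.0637) and 0.74 ± 0.17 averaged (adjusted p = 0.00189). The interaction of 0.14 ± 0.35 (adjusted p = 0.999), or -0.06 without AMB mKO replicate 2, did not separate the 2 changes. Without AMB mKO replicate 2, which had the lowest Smad3 of all, the call in mKO mice was lost, at 0.63 (adjusted p = 0.0613). The change in controls was then called, at 0.69 (adjusted p = 0.0202). The call in mKO mice was lost in 9 of 30 such fits (adjusted p of 0.0149 to 0.0773 over the 30), the others being those without AMB mKO replicates 3, 4, 5 and 7 and HU mKO replicates 5, 6, 7 and 8. The change in controls also passed without HU Ctrl replicate 3 (0.0488) or HU mKO replicate 3 (0.0437). Averaged over genotypes, the call was kept without each of the 30 libraries, at adjusted p between 0.000575 and 0.00399, and Smad3 was higher in HU mice in all 3 letters and both sexes of both genotypes.

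Smad3 also varied widely among unloaded mice. Unloaded males ran from 104 to 175 CPM with a median of 145.7, against 95.2 to 122 CPM with a median of 108.1 in ambulatory males. Unloaded females ran from 77.0 to 273 CPM with a median of 192.1, against 38.95 to 130.3 CPM with a median of 80.5 in ambulatory females. Males spread less than females in both loading states. A test of the difference between sexes in the unloading change, chosen after these values were seen, gave -0.73 ± 0.33 for males minus females (edgeR unadjusted p = 0.0344, adjusted p = 0.904). In the same edgeR test Gdf11 (-0.73 ± 0.33, unadjusted p = 0.0368) and Fst (0.85 ± 0.38, unadjusted p = 0.0341) gave values of like size, both at edgeR adjusted p = 0.904. At an unadjusted p below 0.05 edgeR thus had 3 of 10 members and 4.71% of all genes, and 0 genes were called. AMB mKO held only 2 females, and replicate 2, the library that stood apart, was among them. That library had the lowest Smad3 (38.95 CPM) and the highest Fst (35.8 CPM) of all mice. Its Gdf11 (1.45 CPM) was the lowest of its group. No value of this test without it is given here, so these differences may lean on it. In the mean log2 levels, Gdf11 differed on unloading by -0.88 in mKO males and 0.05 in mKO females, and by -0.43 in control males and -0.08 in control females. All unloaded mice of letter b are female and all of letter a are male, so letter and sex cannot be told apart within letters.

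Neither Smad2 nor Smad7 passed. Smad2, the other receptor-activated SMAD of this arm, had medians of 39.0 CPM in HU mKO (29.1 to 43.9) and 35.5 CPM in AMB mKO (28.0 to 46.5), and of 37.9 CPM in HU Ctrl (30.8 to 39.2) and 31.8 CPM in AMB Ctrl (23.6 to 36.2). Its averaged change was 0.14 ± 0.077 (adjusted p = 0.183), where the 2 genotypes gave 0.03 ± 0.11 in mKO mice and 0.24 ± 0.11 in controls. Without AMB mKO replicate 2 the change was 0.13 in mKO mice (adjusted p = 0.497) and 0.18 averaged (adjusted p = 0.058). Smad7 had medians of 18.2 CPM in HU mKO (15.2 to 24.4) and 19.9 CPM in AMB mKO (15.2 to 45.2), and of 18.6 CPM in HU Ctrl (13.4 to 27.2) and 22.6 CPM in AMB Ctrl (20.4 to 32.4). Its averaged change was -0.31 ± 0.13 (adjusted p = 0.0646), and 4 of 7 HU Ctrl mice lay below every AMB Ctrl mouse. Without HU Ctrl replicate 6 it passed both averaged (-0.39, adjusted p = 0.0143) and in controls (-0.56, adjusted p = 0.0417). The averaged change also passed without AMB mKO replicate 2, 3 or 7 or HU mKO replicate 7 (adjusted p of 0.0321 to 0.0423), with sex left out of the model (0.0464) and without the 3 adipocyte-rich libraries (0.042).

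Set by comparison, 2 of the 10 were called in HU mKO against AMB mKO, where 10.1% of all genes were called, and 0 of 10 in HU Ctrl against AMB Ctrl, where 11.1% were. At an unadjusted p below 0.05 edgeR had 3 of 10 members in each, beside 27.3% of all genes in mKO mice and 26.4% in controls, and DESeq2 called 2 in mKO mice and 1, Smad3, in controls. The median log2 change of the members was 0.01 in mKO mice and 0.175 in control mice, beside -0.04 and 0.03 over all genes, and averaged over genotypes it was 0.106, beside -0.00939 over all genes. The values of every member overlapped between the 2 groups in HU mKO against AMB mKO and in HU Ctrl against AMB Ctrl. The share of all genes that overlapped is not given here, so this is not read as particular to the members. The interaction called 0 of 10 members and 0% of all genes (at an unadjusted p below 0.05 edgeR had 0 members and 410 genes, or 2.42%, and DESeq2 called 0), and its largest member value was that of Fstl1, -0.56 ± 0.43. The comparisons within a loading state and within a genotype share groups of mice, so their values are not independent.

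**Figure D2:**
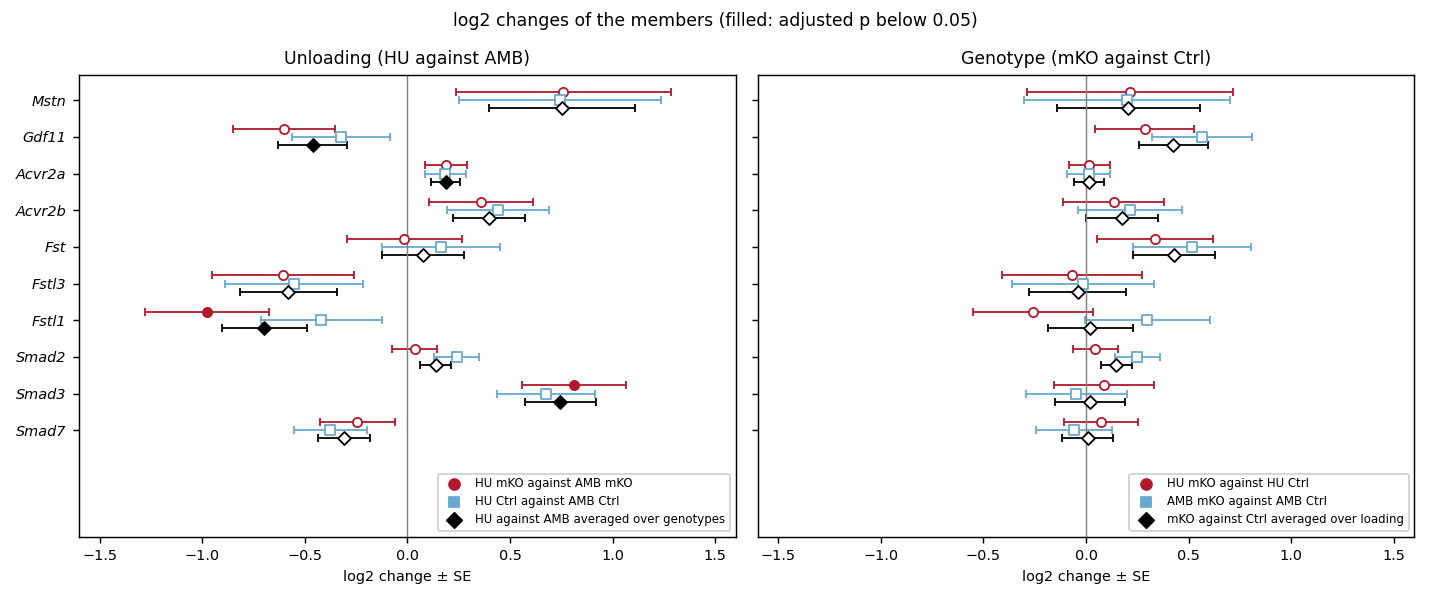
Log2 change of each of the 10 genes with its SE in the unloading (left) and genotype (right) comparisons, filled where called. Smad3 lies to the right of 0 in every unloading comparison and Fstl1 to the left, and no genotype point is filled.

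No member was called between knockouts and controls. In AMB mKO against AMB Ctrl 0.0177% of genes were called, and in HU mKO against HU Ctrl likewise 0.0177%, 3 genes each. At an unadjusted p below 0.05 edgeR had 2 members and 7.62% of genes in ambulatory mice and 0 members and 1.78% of genes in unloaded mice, and DESeq2 called 0 in both. Those 2 were Gdf11, at 0.56 ± 0.24 (edgeR adjusted p = 0.623), and Smad2, at 0.25 ± 0.11 (adjusted p = 0.628). Gdf11 averaged 3.03 ± 0.968 CPM in AMB mKO and 2.00 ± 0.404 CPM in AMB Ctrl, against 1.93 ± 0.668 CPM in HU mKO and 1.603 ± 0.402 CPM in HU Ctrl. In mean log2 levels, Gdf11 in AMB mKO differed from AMB Ctrl by 0.586 in males and by -0.00156 in females. AMB mKO held 5 males and 2 females, replicate 2 among the females, and AMB Ctrl 3 males and 5 females. Averaged over loading, 0.0177% of genes and 0 members were called, and 5.97% of genes and 2 members had an unadjusted p below 0.05. Of these, Gdf11 had a log2 change of 0.43 ± 0.17 (edgeR adjusted p = 0.784) and Fst one of 0.43 ± 0.20 (adjusted p = 0.819). The Fst value was 0.21 without AMB mKO replicate 2. Between males and females 0 of 10 members and 0.213% of genes were called, and 1 member and 12.6% of genes had an unadjusted p below 0.05. That member was Fstl3, -0.51 ± 0.25 in males against females (edgeR adjusted p = 0.391), and DESeq2 called 0.

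Mstn was set beside the myosins mouse by mouse, since its level differs between fibre types. In rodent muscle, myostatin is known to be more abundant in fast fibres, and Myh4 and Myh1 encode the IIb and IIx myosins while Myh2 and Myh7 encode the IIa and slow ones. Within HU Ctrl, Mstn and Myh1 had a Pearson r of 0.942 (exact permutation p = 0.000198, adjusted p = 0.00317 over 16 relations) and a Spearman rho of 1 (exact p = 0.000397, adjusted p = 0.00635) over 7 mice. Without the 2 mice farthest from the median Myh1 the r was 0.838 (exact p = 0.0667), a similar r that did not pass over 5 mice. Myh1 in the other groups gave r of 0.454 in HU mKO, 0.536 in AMB mKO and 0.675 in AMB Ctrl, and none passed. Without the 2 farthest mice these were 0.519, 0.754 and 0.181 (exact p of 0.275, 0.208 and 0.76), so the AMB Ctrl value rests on those 2 mice. With Myh4 the r was 0.801 in HU mKO, 0.738 in HU Ctrl and 0.744 in AMB mKO (adjusted exact permutation p of 0.103, 0.155 and 0.171), and 0.671, 0.562 and 0.984 without the 2 mice farthest from the median Myh4 (unadjusted exact p of 0.133, 0.367 and 0.0167). AMB Ctrl mice fell into separate clusters on Myh4, with 4658 CPM in replicate 1 and 1147 CPM in replicate 8 against 13.8 to 28.6 CPM in the other 6. The r over all 8 was 0.851 (exact permutation p = 0.00164, adjusted p = 0.0131), which passed but spans those clusters. The Spearman rho over all 8 was 0.833 (exact p = 0.0154, adjusted p = 0.123) and did not pass after adjustment. The 6 mice at low Myh4 had an r of 0.663 (exact p = 0.164). No relation with Myh2 or Myh7 passed over all mice of a group. The r with Myh2 in HU mKO was -0.527, and -0.822 without the 2 farthest mice (unadjusted exact p = 0.0264). Each letter holds too few mice of a group for a value within it.

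**Figure D3:**
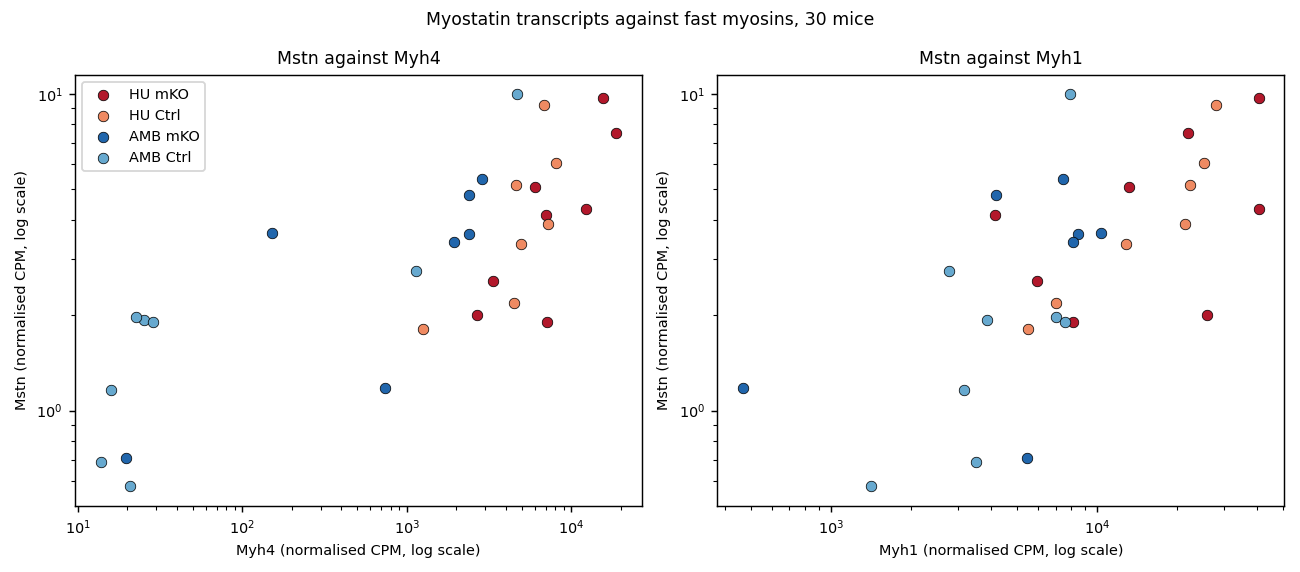
Mstn (vertical) against Myh4 and Myh1 (horizontal) in every mouse, in normalised CPM on log axes and coloured by group. AMB Ctrl replicate 1 is the highest AMB Ctrl point, at 9.97 CPM of Mstn and 4658 CPM of Myh4, and 6 AMB Ctrl mice lie at the left of the Myh4 panel at up to 28.6 CPM of Myh4.

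Over all 30 libraries, of 14381 genes ranked, the transcript most like Mstn was Mybpc2, the fast-fibre myosin-binding protein C, with a Spearman rho of 0.866. Pfkfb4, an enzyme that regulates glycolysis, had 0.839, Tmem56 0.837, Fam199x 0.834 and Spns2, a transporter of sphingosine phosphate, 0.826. Myh4 had 0.761 and Myh1 0.677, against -0.309 for Myh2 and -0.266 for Myh7. These values describe the same libraries, which share depth and fibre makeup, and they carry no test. Averaged over genotypes, 14.2% of all genes rose with unloading and 14.3% fell. Of the 9 fast-fibre markers 5 rose, and their summed medians were 47900 CPM in HU mKO (20500 to 101000) and 28800 CPM in AMB mKO (3010 to 33000), and 55300 CPM in HU Ctrl (15700 to 70400) and 17900 CPM in AMB Ctrl (10600 to 36200). Of the 8 slow-fibre markers 4 fell, with medians of 15700 CPM in HU mKO (10700 to 34800) and 24400 CPM in AMB mKO (460 to 37800), and 21400 CPM in HU Ctrl (10600 to 28400) and 29100 CPM in AMB Ctrl (16400 to 42200). The part of fibre type in the members' values was not tested.

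Among the other receptors of the pathway, the type I receptors Tgfbr1 and Acvr1b rose. Averaged over genotypes, 3 of 6 other receptors and co-receptors rose and 1 fell. Tgfbr1, the type I receptor of TGF-beta, had 43.8 to 61.0 CPM with a median of 53.0 in HU mKO and 23.0 to 43.1 CPM with a median of 32.1 in AMB mKO. It had 46.5 to 56.6 CPM with a median of 53.1 in HU Ctrl, against 28.8 to 43.2 CPM with a median of 35.1 in AMB Ctrl. Every unloaded mouse of either genotype thus lay above every ambulatory mouse, and Tgfbr1 rose by 0.64 ± 0.0868 on the log2 scale (adjusted p = 4.8e-06). Acvr1b, the type I receptor that myostatin and activins use, rose 1.97-fold, by 0.98 ± 0.152 (adjusted p = 3.01e-05), and averaged 53.8 ± 15.6 CPM in HU mKO and 28.4 ± 4.65 CPM in AMB mKO, and 53.4 ± 17.99 CPM in HU Ctrl and 26.3 ± 7.77 CPM in AMB Ctrl. Both rose within each genotype too, Acvr1b 1.91-fold in mKO and 2.02-fold in control mice, Tgfbr1 1.61-fold in mKO and 1.51-fold in control mice. Tgfbr3, the co-receptor betaglycan, rose 1.50-fold (adjusted p = 0.0111). Eng, the endothelial co-receptor endoglin, fell by 0.63 (SE 0.103, adjusted p = 4.7e-05). Of 8 endothelial markers 3 fell, beside 14.3% of all genes, with summed medians of 401 CPM in HU mKO (370 to 541) and 472 CPM in AMB mKO (386 to 512), and 392 CPM in HU Ctrl (372 to 497) and 522 CPM in AMB Ctrl (425 to 660); their part in the Eng result was not tested.

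Of the other ligands of the SMAD2 and SMAD3 arm, 2 of 6 tested fell and none rose. Tgfb1 fell by 0.58 (SE 0.15, adjusted p = 0.00438), with 8.89 ± 1.36 CPM in HU mKO and 12.6 ± 4.46 CPM in AMB mKO, and 8.89 ± 3.23 CPM in HU Ctrl and 14.1 ± 2.97 CPM in AMB Ctrl. Inhba, the activin A subunit, fell by 0.76 (SE 0.274, adjusted p = 0.037), a call lost in 13 of 30 fits without 1 library. Of 12 genes for processing and binding of ligands 4 fell. They were Tll2, a protease of the family that frees myostatin from its propeptide, which fell 3.09-fold (adjusted p = 0.00174), the latent TGF-beta binding proteins Ltbp4 (1.58-fold, adjusted p = 0.00538) and Ltbp3 (1.41-fold, adjusted p = 0.00465), and the proprotein convertase Pcsk5 (1.72-fold, adjusted p = 0.0202), whose call was lost without AMB mKO replicate 2. Tll2 was scarce, at a median of 0.350 CPM in HU mKO and 1.35 CPM in AMB mKO, and 0.395 CPM in HU Ctrl and 1.65 CPM in AMB Ctrl.

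Inside the cell, 2 of 12 partners and brakes rose and 1 fell. Nedd4l, a ubiquitin ligase that acts on activated SMADs, rose by 0.82 (SE 0.107, adjusted p = 3.27e-06), with 89.5 ± 21.96 CPM in HU mKO and 52.9 ± 6.37 CPM in AMB mKO, and 89.3 ± 16.4 CPM in HU Ctrl and 48.7 ± 9.51 CPM in AMB Ctrl. Tgif1, a SMAD corepressor, rose 1.50-fold (adjusted p = 0.00362), and Smurf1, another ubiquitin ligase, fell 1.23-fold (adjusted p = 0.0347). Among transcripts that SMAD3 is known to induce, of which 9 are reported here, 1 rose and none fell, beside 14.2% and 14.3% of all genes. It was Nox4, an NADPH oxidase, which rose 2.01-fold (adjusted p = 0.00721). Of the 9 values 4 lay above 0 and 5 below, with a median of -0.04, and the lowest was that of Cdkn2b, a cell cycle inhibitor, at -0.94 ± 0.447 (adjusted p = 0.114). 

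In the BMP arm, the branch of the family that signals through SMAD1, SMAD5 and SMAD9, 4 of 20 tested genes fell and none rose. Id1, which BMP signals induce, fell 1.86-fold (adjusted p = 6.86e-05), with 7.21 ± 1.43 CPM in HU mKO and 13.4 ± 4.04 CPM in AMB mKO, and 7.33 ± 2.23 CPM in HU Ctrl and 14.6 ± 5.07 CPM in AMB Ctrl. Id3 fell 1.46-fold (adjusted p = 0.00686), the ligand Bmp6 1.36-fold (adjusted p = 0.00195) and Twsg1, a secreted BMP binder, 1.33-fold (adjusted p = 2.53e-05). In this comparison 14.2% of all genes rose and 14.3% fell. Of the receptors 3 of 6 rose. The genes that fell were 2 of 6 ligands, 4 of 12 processing and binding genes and 4 of 20 of the BMP arm. In either direction 28.5% of all genes were called. Beside this, the BMP arm (4 of 20) lay lower, and the ligands (2 of 6) and the processing and binding genes (4 of 12) lay near. The receptors (4 of 6) lay higher. The partners and brakes lay near the shares of all genes. The lists hold 6 to 20 tested genes, and no test of a list was made. They were chosen with earlier results of these data known, so these shares only describe the lists and support no excess. No gene of the 6 lists was called between genotypes, in the interaction or between sexes.

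**Figure D4:**
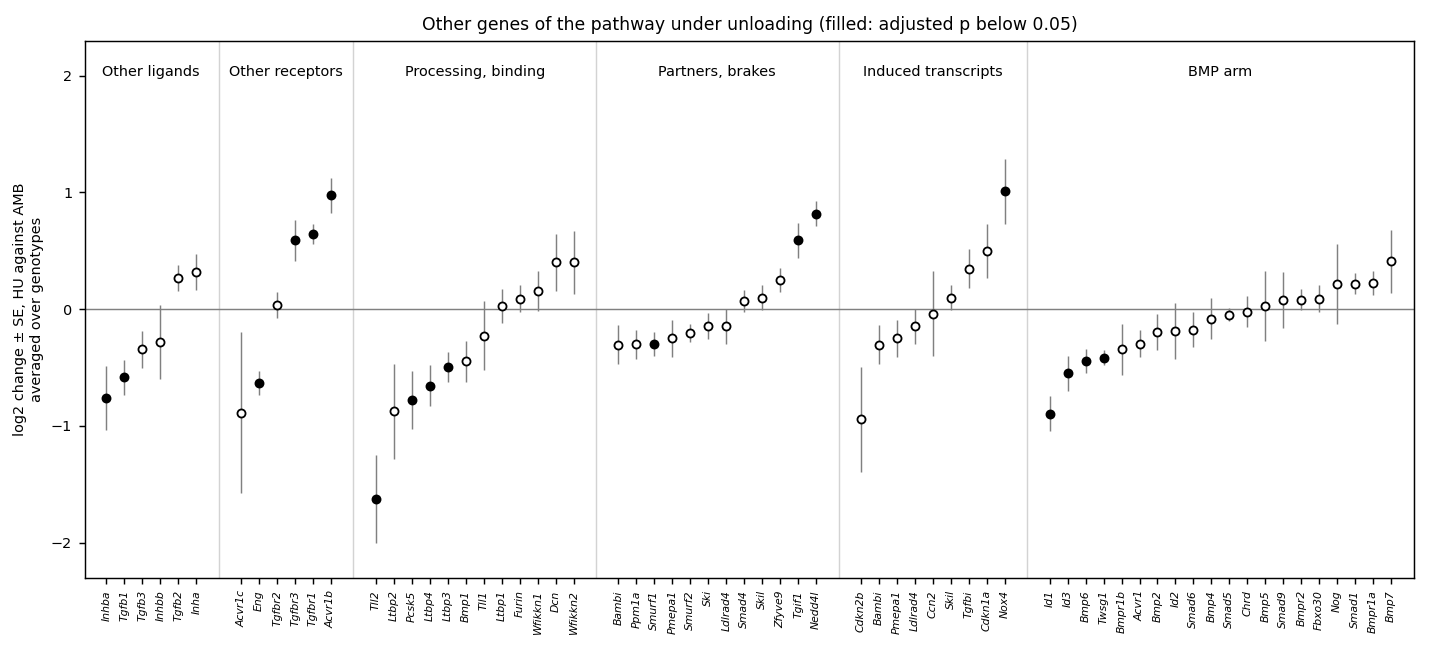
Log2 change on unloading, averaged over genotypes, of each tested gene reported here from the 6 other lists, with its SE. Filled points are called genes. Tll2 (-1.62) lies lowest, and Nox4 (1.01) and Acvr1b (0.98) highest.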

How the data were processed

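Total RNA of the soleus of 30 mice had been sequenced on an Illumina NovaSeq with a directional kit, per the labels. The deposited values are raw counts per Ensembl gene, 1 column per mouse and not normalised by the authors. Per the submitters' processing notes the build was GRCm39 (mm39) and the tools were STAR 2.7.9a, featureCounts 1.6.3, cutadapt 1.16 and DESeq2 1.34.0. Annotation release and strand setting: not given in the sources used here. Protocol texts in the labels speak of people and myotubes, so only the kit was taken.

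Counts were scaled by TMM and tested in edgeR 4.0.16 (R 4.3.3) with filterByExpr by group (minimum count 10), a robust quasi-likelihood fit of the 4 groups and sex to all 30 libraries, and Benjamini-Hochberg adjustment over 16932 genes. The SE of a log2 change is the change divided by the square root of its F statistic. Folds come from the model. DESeq2 1.42.0, RLE scaling, other filters, covariates and libraries were alternatives. The ratio used 0.5 added counts and the relations a prior count of 2. The edgeR fit was checked on simulated data. All 10 members are described; of other lists, called genes up to 6 by p; and the 5 genes most like Mstn. A result on 1 further gene is not reported here. The members and lists were chosen with earlier results of these data known. Each mouse is 1 replicate. Lengths come from GENCODE on GRCm38, and promoters from RefSeq GRCm38.p6, for 7 members.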

Additional observations from a re-analysis of the deposited data

Results flagged for a closer look

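Among 40 sets of values (10 genes in 4 groups), 3 held a mouse far from the others of its group, and chance alone marks about 1 set in 20. Mstn in AMB Ctrl replicate 1 was 9.97 CPM, the highest of 8, where the next mouse had 2.77 CPM. The same mouse had the highest Myh4 of its group, 4658 CPM. Leaving it out brought the unloading change of Mstn past the threshold, at 1.49 in controls (edgeR adjusted p = 0.0366). As the mouse was marked by its Mstn level, this fit is no independent support for a change. In AMB mKO replicate 2, Fst was 35.8 CPM, the highest of 7, where the next mouse had 19.8 CPM, and Smad3 was 38.95 CPM, the lowest of 7, where the next had 95.2 CPM. That library also held the lowest sum of muscle fibre markers, 9170 CPM. Whether its makeup sets these values was not tested.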

How the results depend on the processing

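No paired analysis was possible because the labels give no replicate numbers, and replicates were numbered only to name them. The member counts in the genotype, interaction and sex comparisons stayed at 0 under every alternative. In HU Ctrl against AMB Ctrl 1 member, Smad3, was called with DESeq2 (adjusted p = 0.0484), with title letters added to the model (0.0287), with only the groups compared (0.014) and without the 3 adipocyte-rich libraries (0.0107), and the count was 0 to 1 with 1 library left out, the 1 being Smad3, Mstn or Smad7. In HU mKO against AMB mKO it was 0 with no low-count filter and 0 with only the groups compared, and 0 to 2 with 1 library left out. Averaged over genotypes it was 2 with no low-count filter and 2 to 5 with 1 library left out. Beside the main calls, Acvr2b, Fstl3 and Smad7 passed in 2, 3 and 2 of 7 other alternatives, and Gdf11 in mKO mice in 1 of 8. The averaged calls of Smad3 and Fstl1 were kept in all. That of Acvr2a was kept in 4 of the 7 (edgeR or DESeq2 adjusted p up to 0.126). That of Gdf11 was kept in 5 of the 7 (adjusted p up to 0.0947). The cause of these moves was not tested. The Mstn to Fst difference of AMB mKO against AMB Ctrl turned to -0.0326 without AMB Ctrl replicate 2 (range -0.0326 to 0.67). The relation of Mstn in AMB mKO with Myh2 turned to -0.447 and with Myh7 to -0.608 without AMB mKO replicate 2. Counts over all genes moved by over 1.5 times in HU Ctrl against AMB Ctrl (1882, with 1225 unfiltered and 3098 with only the groups compared), in HU mKO against AMB mKO (1702, with 987 unfiltered, 608 with only the groups compared, 2591 with the letter and 954 without HU mKO replicate 5), between sexes (36, with 126 in DESeq2, 55 with the letter and 73 without AMB mKO replicate 1) and between genotypes (3, with 1 to 9). Of single-gene values, 162 changed sign under an alternative, in 30 of 115 results, and 0 of these were called in either fit. Mstn, Gdf11 and Fstl3 rest on few reads, which limits what these libraries can show of them.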
